A study of Homo sapiens with 16 samples.

Results

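The NDUF genes are the nuclear genes for the subunits and assembly factors of respiratory complex I. They were taken here as every gene symbol in the count tables that starts with NDUFA, NDUFB, NDUFC, NDUFS, NDUFV or NDUFAF followed by digits, which gave 43 of 23230 symbols. By textbook roles, 10 belong to the N module, which oxidises NADH, 6 to the Q module, which passes electrons to ubiquinone, 9 to the proximal and 11 to the distal part of the proton-pumping membrane arm, and 4 are assembly factors (NDUFAF1 to NDUFAF4). The same symbols also caught NDUFA4, now counted as a subunit of complex IV, its paralog NDUFA4L2, and the read-through symbol NDUFC2-KCTD14.

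The study sequenced polyadenylated RNA from 8 established human blood cell lines, each with 1 library per peptide and 16 libraries in all. Y518R is the peptide that binds DPY30, per the labels, and 3R is the control peptide that does not. DPY30 takes part in every SET1/MLL complex, the enzymes that methylate lysine 4 of histone H3. All cells were grown in Advanced RPMI with 2.5% fetal bovine serum. The sources used here do not give peptide dose or time. MLL-fusion lines, by the labels, were MOLM13 (MLL-AF9), THP1 (MLL-AF9), RS4-11 (MLL-AF4) and KOPN8 (MLL-ENL). Lines without one were K562 (BCR-ABL), JURKAT (T cell leukemia), RAJI (Burkitt's lymphoma) and P493-6 (Burkitt's lymphoma model). An untreated library was not analysed here, so the level with 3R stands for the level of a line.

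Complex I is the entry point of electrons from NADH into the mitochondrial respiratory chain. Its core subunits hold the flavin and the iron-sulphur clusters, and many accessory subunits wrap the core and are needed for assembly. The mitochondrial genome encodes the remaining core subunits, which are not described here. In blood cancers complex I is studied as a source of ATP and of oxidised NAD, and as a drug target.

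Libraries held 19354300 to 43003124 gene counts, and 41 of the 43 genes had at least 100 counts in every library. NDUFC2-KCTD14 was at 0 in all 16 libraries. At this depth 0 allows up to 3 counts per library, or 0.0698 to 0.155 CPM, where CPM is the count relative to the library's total. NDUFC2-KCTD14 shares sequence with NDUFC2, and HTSeq, which the submitters' processing notes name, by default gives a read on overlapping genes to neither. The levels of both are therefore uncertain, and the bound from depth may not hold for NDUFC2-KCTD14. The other 42 passed the expression filter. LYZ, CD79A, CD3D, GATA1 and HOXA9, which mark monocytic, B lineage, T lineage, erythroid and MLL-fusion cells, were highest in the lines named for those types. The RAJI 3R library stood apart with 44.7% no-feature reads, which fell on no gene. This is a share of the reads on a gene, on several genes or on none. The NDUF medians over lines are also given without RAJI. Ranges between lines, counts of highest and lowest lines and counts of groups that do not overlap include it.

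Promoters of some of the NDUF genes described in this report are printed here, so that the letters can be read beside the levels. They come from RefSeq on GRCh38.p14, not from the count tables, and each is 200 bases across an annotated start. The regions are chr12:4648944-4649143 on the plus strand for NDUFA9, chr9:122159750-122159949 on the minus strand for NDUFA8, chr19:19516055-19516254 on the plus strand for NDUFA13, chr11:47578904-47579103 on the plus strand for NDUFS3, chr5:1801237-1801436 on the plus strand for NDUFS6 and chr7:123557789-123557988 on the minus strand for NDUFA5. Capitals mark ATGGCGG (YY1), GCGCATG (NRF1) or CCGGAAG (ETS factors) on either strand.
NDUFA9 promoter: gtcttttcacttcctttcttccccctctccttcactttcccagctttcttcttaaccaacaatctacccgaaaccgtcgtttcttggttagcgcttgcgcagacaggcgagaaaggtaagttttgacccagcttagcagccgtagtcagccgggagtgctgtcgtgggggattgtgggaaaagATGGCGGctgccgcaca
NDUFA8 promoter: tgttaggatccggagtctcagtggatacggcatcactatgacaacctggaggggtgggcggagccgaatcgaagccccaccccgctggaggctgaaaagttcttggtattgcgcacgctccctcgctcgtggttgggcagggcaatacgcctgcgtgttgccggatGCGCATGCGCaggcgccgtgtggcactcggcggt
NDUFA13 promoter: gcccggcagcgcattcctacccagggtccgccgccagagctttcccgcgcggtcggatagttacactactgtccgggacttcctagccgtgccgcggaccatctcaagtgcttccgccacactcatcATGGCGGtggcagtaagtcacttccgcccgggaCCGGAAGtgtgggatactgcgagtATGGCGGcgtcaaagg
NDUFS3 promoter: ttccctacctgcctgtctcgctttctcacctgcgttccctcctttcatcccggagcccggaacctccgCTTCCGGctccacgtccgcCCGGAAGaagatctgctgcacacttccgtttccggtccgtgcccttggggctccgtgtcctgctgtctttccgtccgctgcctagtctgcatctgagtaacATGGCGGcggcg
NDUFS6 promoter: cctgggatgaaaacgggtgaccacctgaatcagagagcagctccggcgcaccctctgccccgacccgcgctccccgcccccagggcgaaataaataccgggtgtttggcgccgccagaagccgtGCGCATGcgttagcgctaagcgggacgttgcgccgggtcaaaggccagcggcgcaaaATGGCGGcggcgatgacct
NDUFA5 promoter: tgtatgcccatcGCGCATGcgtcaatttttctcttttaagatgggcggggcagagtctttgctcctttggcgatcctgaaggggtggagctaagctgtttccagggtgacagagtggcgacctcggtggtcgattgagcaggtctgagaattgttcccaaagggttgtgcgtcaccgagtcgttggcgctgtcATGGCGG

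These letters were searched on both strands of the RefSeq promoters, from 250 bases before to 50 bases after a start, and overlapping matches were kept. Of the 43 genes, 38 had a promoter in the table. ATGGCGG was present in 15 of 38 (39.5%), against 9.15% of 15843 protein-coding genes, and GCGCATG in 8 of 38 (21.1%), against 6.82%. In NDUFA8 the match on one strand runs into the match on the other. ATGGCGG or GCGCATG was in 18 of 38 genes but in every promoter printed above, so the printed ones do not show how common these letters are. CCGGAAG was in 6 (15.8%, against 16.5%), the SP1 letters GGGCGG in 25 (65.8%, against 64.3%) and the E-box CACGTG in 3 (7.89%, against 10.9%). ATGGCGG begins with the letters of a start codon: 12 genes held it on the strand of the gene, and in 10 of these it sat on a start codon annotated in GENCODE 29. A match is a description and not a binding site, and the promoters were not measured in these data.

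Between Y518R and 3R over the 8 lines, no NDUF gene passed the test. The median log2 change of the 42 tested genes was 0.013, with 25 above 0 and 17 below. Over all 13043 tested genes the median was -0.0037, with 48.3% above 0. edgeR's quasi-likelihood test, with the line as block and Benjamini-Hochberg adjustment, called 0 of the 42 genes and 0 of all genes (0%) at an adjusted p under 0.05. At an unadjusted p under 0.05 it gave 0 of the 42 and 394 of all genes (3.02%). DESeq2 called 0 of the 42 and 0 of all genes, and limma-voom 0 of the 42 and 1 of all. With MOLM13 left out the median of the NDUF genes was -0.0097, with KOPN8 left out -0.0066, with THP1 left out 0.052 and with RAJI left out 0.010, so its sign depended on single lines. In bulk RNA, fewer cells of a type and less RNA per cell cannot be told apart.

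NDUFA9, the Q module subunit that sits where the peripheral arm meets the membrane arm, had the lowest p on the higher side. Its level with Y518R was 95.8 CPM in MOLM13, 41.7 CPM in THP1, 116 CPM in RS4-11, 92.7 CPM in KOPN8, 92.3 in K562, 156 in RAJI, 118 in JURKAT and 105 in P493-6 (CPM scaled by the TMM method, as in all levels from here on). Its level with 3R in the same order was 68.7, 40.5, 114, 89.8, 86.1, 126, 109 and 111 CPM. NDUFA9 was therefore higher with Y518R in 7 of 8 lines and lower in P493-6. The fitted log2 change was 0.13 ± 0.062 (SE, n = 8 lines; edgeR adjusted p = 0.999). The MOLM13 log2 ratio of 0.48 and the RAJI ratio of 0.31 were the largest, and the 5 other positive ratios were 0.031 to 0.11. Without MOLM13 the fitted change was 0.083.

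NDUFB3 and NDUFB4, accessory subunits of the distal membrane arm, had the lowest p on the lower side. NDUFB3 was at 77.0 CPM in MOLM13, 61.5 CPM in THP1, 64.1 CPM in RS4-11, 72.4 CPM in KOPN8, 55.2 in K562, 89.9 in RAJI, 64.1 in JURKAT and 33.2 in P493-6 with Y518R. With 3R it was at 82.3, 86.3, 58.3, 74.3, 65.6, 99.0, 66.9 and 34.7 CPM in the same order. It was lower with Y518R in every line but RS4-11, by a fitted log2 change of -0.12 ± 0.065 (SE, n = 8; edgeR adjusted p = 0.999). NDUFB4 had a fitted change of -0.11 ± 0.058 (SE, n = 8; edgeR adjusted p = 0.999) and was lower in every line but KOPN8. For both genes the THP1 ratio was the lowest, at -0.49 for NDUFB3 and -0.46 for NDUFB4. Without THP1 the fitted change was -0.073 for NDUFB3 and -0.056 for NDUFB4.

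The other genes with the lowest p were NDUFB8 in the distal arm (0.085 ± 0.064), NDUFA12 in the N module (0.094 ± 0.074) and NDUFA4L2 (-0.17 ± 0.15), with SE over 8 lines and an edgeR adjusted p of 0.999 each. Without MOLM13 the change of NDUFB8 was 0.030 and that of NDUFA12 0.021, and without THP1 that of NDUFA4L2 was -0.039. NDUFA4L2, known as a target of hypoxia-inducible factor, was the lowest-expressed of the 42, with 16 to 680 counts per library. No gene was higher with Y518R in all 8 lines, against 0.176% of all tested genes, and none was lower in all 8, against 0.238%. By module, the median log2 change was 0.013 for the N module (7 of 10 above 0), 0.050 for the Q module (6 of 6), -0.0067 for the proximal arm (4 of 9), -0.0022 for the distal arm (5 of 11) and 0.029 for the assembly factors (3 of 4). The SD of a gene's log2 ratio over the lines had a median of 0.20 for the NDUF genes, against 0.25 over all tested genes.

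The next question was whether the lines with an MLL fusion differed from the other lines in the response. In the 4 MLL-fusion lines the median log2 change of the NDUF genes was 0.040 (28 of 42 above 0). In the 4 other lines it was -0.016 (13 of 42 above 0). Of all genes, 49.9% were above 0 in the MLL-fusion lines and 48.1% in the other lines. edgeR called 0 of the 42 and 0% of all genes in each class. At an unadjusted p under 0.05 it gave 0 NDUF genes in both, against 5.84% of all genes in the MLL-fusion lines and 1.55% in the other lines. Without THP1 it gave 8 of the 42 in the MLL-fusion lines, against 1021 of 12683 genes. Without KOPN8 it gave 1 of the 42 there, against 712 of 13059 genes. DESeq2 and limma-voom called 0 of the 42 in each class. They called 1 gene and 20 genes in all in the MLL-fusion lines, and 0 genes and 2 genes in the other lines. The difference between the classes, tested itself, had a median of 0.052 (33 of 42 above 0, against 52.2% of all genes, whose median was 0.0098). With no scaling beyond library totals it was 0.016, with 24 of 42 above 0, while the median of all genes was -0.026, and the MLL-fusion median was 0.013, with 25 of 42 above 0. For other respiratory genes, with TMM scaling, the median class difference was 0.096 for ATP synthase (16 of 18 above 0). It was 0.065 for complex IV (16 of 21), 0.062 for complex II (5 of 8) and 0.009 for complex III (9 of 14). In that test edgeR again called 0 of the 42 and 0% of all genes, with 0 and 3.79% at an unadjusted p under 0.05, and DESeq2 and limma-voom called 0 of the 42 and 2 genes each in all. Without THP1 edgeR gave 3 of the 42 at that unadjusted p, against 685 of 12683 genes. Without KOPN8 it gave 1 of the 42, against 506 of 13059 genes.

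The medians of the NDUF genes depended on single lines. In the MLL-fusion lines it was -0.014 without MOLM13, -0.0051 without KOPN8 and 0.14 without THP1. In the other lines it was 0.014 without JURKAT (25 of 42 above 0), -0.040 without RAJI (10 of 42) and -0.027 without K562 (19 of 42). The class difference was 0.0028 without MOLM13 (21 of 42 above 0), 0.0023 without KOPN8 (21 of 42), 0.024 without JURKAT (25 of 42), 0.16 without THP1 (38 of 42) and 0.081 without RAJI (34 of 42). NDUFA12 (0.20 ± 0.10) and NDUFB8 (0.16 ± 0.089) came first on the higher side in the MLL-fusion lines (log2 change ± SE, n = 4; edgeR adjusted p of 0.841 and 0.843). The SE and p of each class rest on a spread estimated from the lines of both classes together. NDUFB4 (-0.14 ± 0.085) and NDUFB3 (-0.12 ± 0.095) came first on the lower side, at edgeR adjusted p of 0.857 and 0.880, before NDUFC2 (-0.16 ± 0.16; edgeR adjusted p = 0.914). Without MOLM13 the MLL-fusion change of NDUFA12 was 0.056 and that of NDUFB8 0.057. Without THP1 that of NDUFB4 was -0.031 and that of NDUFB3 -0.0031, and without KOPN8 that of NDUFC2 was -0.092. In the other lines the corresponding genes were NDUFA9 (0.11 ± 0.091), NDUFS6 (0.11 ± 0.11) and NDUFC2 (0.13 ± 0.16) on the higher side, and NDUFB3 (-0.13 ± 0.096), NDUFA4 (-0.12 ± 0.091) and NDUFA1 (-0.12 ± 0.11) on the lower side, with an edgeR adjusted p of 0.9996 each. Without RAJI the change in the other lines was 0.039 for NDUFA9 and 0.041 for NDUFS6, without JURKAT it was 0.055 for NDUFC2, and without K562 it was -0.062 for NDUFA4, -0.082 for NDUFB3 and -0.083 for NDUFA1. For the difference, NDUFA4 had the lowest p, at 0.22 ± 0.13 (edgeR adjusted p = 0.999). NDUFA6 (0.17 ± 0.11) and NDUFS7 (0.23 ± 0.15) followed above 0, and NDUFC2 (-0.30 ± 0.22), NDUFAF4 (-0.10 ± 0.14) and NDUFS1 (-0.063 ± 0.095) came first below 0, at the same adjusted p. Without MOLM13 the difference was 0.13 for NDUFA4, 0.10 for NDUFS7 and -0.027 for NDUFS1, and without THP1 it was -0.010 for NDUFAF4. NDUFA9 was the only NDUF gene higher with Y518R in all 4 MLL-fusion lines, where 6.83% of all tested genes were, and 0 of 42 were lower in all 4, where 7.15% were. NDUFB3 and NDUFB4 were the only ones lower in all 4 other lines, where 5.69% of all genes were, and none was higher in all 4, where 4.06% were.

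Within some single lines most NDUF genes lay on the same side of 0: above it in MOLM13, KOPN8 and RS4-11, and below it in THP1 and JURKAT. The side was thus opposite in the MLL-AF9 lines, while K562, RAJI and P493-6 were nearer to an even split. There was 1 library per line and peptide, so these values have no replicate check and no test. In MOLM13, 36 of 42 were higher with Y518R and the median log2 ratio was 0.19. In THP1, 3 of 42 were higher and the median was -0.28. KOPN8 had 36 of 42 higher with a median of 0.16, RS4-11 31 of 42 with 0.041, RAJI 26 of 42 with 0.036 and K562 21 of 42 with 0.014. JURKAT had 10 of 42 higher with a median of -0.10, and P493-6 16 of 42 with -0.037. Over all tested genes the share above 0 was 49.7% in MOLM13, 50% in THP1, 50.5% in KOPN8, 50.4% in RS4-11, 44.6% in RAJI, 53.3% in K562, 49% in JURKAT and 46.7% in P493-6.

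**Figure D1:**
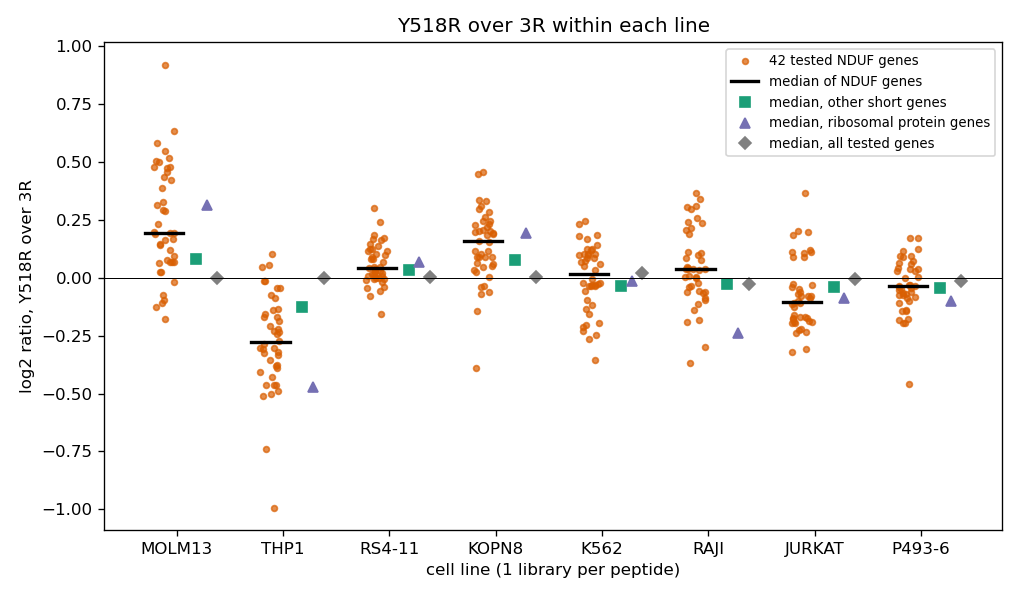
Log2 ratio of Y518R over 3R (vertical axis) for the 42 tested NDUF genes in each of 8 lines (horizontal axis); each point is a gene, the bar its median, and the side symbols are medians of other short genes, ribosomal protein genes and all tested genes. The NDUF median is 0.19 in MOLM13 and -0.28 in THP1, with the ribosomal and other short genes on the same side in both lines.

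A fold of 1.25 was reached by 15 of 42 upward and 0 downward in MOLM13, where 18.3% of all genes were that much higher and 20.1% that much lower. In THP1 it was 0 upward and 17 downward, where 17.7% of all genes were that much higher and 16.6% that much lower. In KOPN8 it was 4 upward (9.39% of all genes) and 1 downward (14%), and in K562 0 upward (12.1%) and 1 downward (12.9%). RAJI had 2 upward (10.9%) and 1 downward (21.7%), JURKAT 1 upward (9.27%) and 1 downward (10.2%), P493-6 0 upward (10.3%) and 1 downward (8.86%), and RS4-11 0 upward (8.65%) and 0 downward (9.2%). In 336 pairs of gene and line no log2 ratio passed 1 in either direction.

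**Figure D2:**
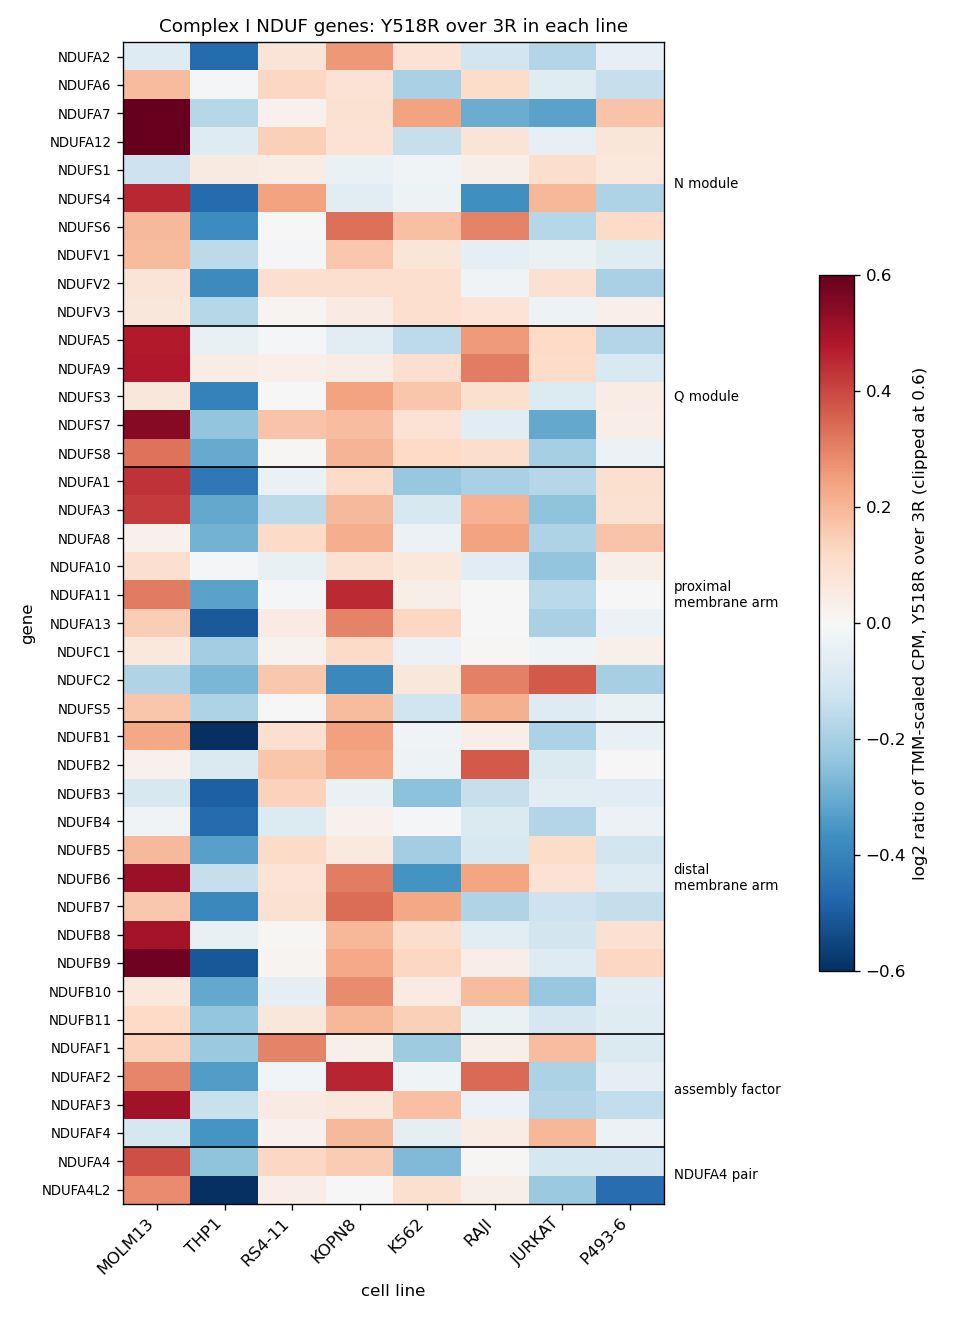
Log2 ratio of Y518R over 3R (colour, clipped at 0.6 either way) of 41 tested NDUF genes (rows, grouped by module) in each line (columns), 1 library per peptide. MOLM13 is mostly red and THP1 mostly blue in every module, and RS4-11 and P493-6 are pale.

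By module, the MOLM13 ratio was highest in the Q module, with a median of 0.47 and 5 of 6 genes at least 1.25-fold higher. Among these were NDUFS7 (0.55), which holds the last iron-sulphur cluster before ubiquinone, NDUFA9 (0.48), NDUFA5 (0.48) and NDUFS8 (0.33), while NDUFS3 was at 0.069. The largest ratio in MOLM13 was that of NDUFA7, an N module accessory subunit, at 0.92 (70.8 CPM with Y518R against 37.4 CPM with 3R; 1423 and 851 counts). NDUFC2 was the lowest there, at -0.18. In THP1 the distal arm had the lowest median among the complex I modules, at -0.32 with 0 of 11 above 0, and NDUFB1 was at -0.74. The lowest value of all was NDUFA4L2 in THP1, at -0.99 (4.65 CPM with Y518R against 9.33 CPM with 3R; 140 and 290 counts). Genes above 0 in THP1 included NDUFS1 (0.055), the largest core subunit, and NDUFA9 (0.044).

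Among the core subunits, NDUFV1, which binds NADH and the flavin, stayed within 0.19 of 0 in log2 in every line. NDUFS1 stayed within 0.13. NDUFV2 and NDUFS3 reached -0.38 and -0.41 in THP1, against 0.078 and 0.069 in MOLM13. The highest and lowest genes of the remaining lines were NDUFAF1 (0.30) and NDUFA3 (-0.16) in RS4-11, NDUFAF2 (0.46) and NDUFC2 (-0.39) in KOPN8, and NDUFA7 (0.24) and NDUFB6 (-0.36) in K562. They were NDUFB2 (0.37) and NDUFS4 (-0.37) in RAJI, NDUFC2 (0.37) and NDUFA7 (-0.32) in JURKAT, and NDUFA8 (0.17) and NDUFA4L2 (-0.46) in P493-6. NDUFA7 and NDUFC2 thus appear at both ends, in different lines.

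Summed over the 42 genes, NDUF mRNA came to 4481 CPM with Y518R against 3740 CPM with 3R in MOLM13, and to 3275 CPM with Y518R against 3895 CPM with 3R in THP1. In KOPN8 the sum was 3203 CPM with Y518R against 2886 CPM with 3R, and in JURKAT 3086 CPM with Y518R against 3275 CPM with 3R. In K562 it was 4547 CPM with Y518R and 4548 CPM with 3R. The Y518R sum was therefore the higher one in MOLM13, RS4-11, KOPN8 and RAJI, and the lower one in THP1, K562, JURKAT and P493-6.

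**Figure D3:**
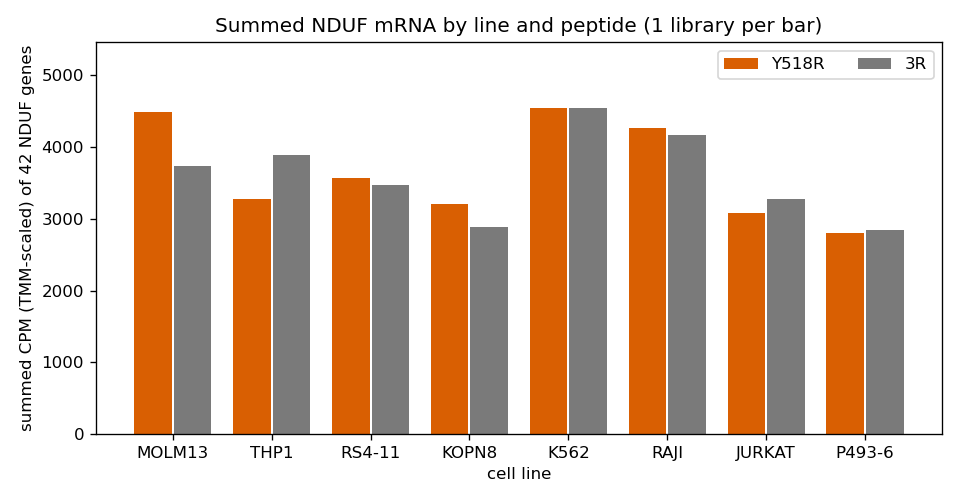
Summed TMM-scaled CPM of the 42 tested NDUF genes (vertical axis) with Y518R and with 3R in each line (horizontal axis); each bar is 1 library, so there is no error bar. The sums run from 2801 to 4547 CPM with Y518R and from 2841 to 4548 CPM with 3R, and the widest gap within a line is in MOLM13.

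In MOLM13 and THP1, genes of the other respiratory complexes, from lists chosen for their function, lay mostly on the same side as the NDUF genes. In MOLM13 the median log2 ratio was 0.21 for complex II (7 of 8 above 0), 0.13 for complex III (9 of 14), 0.19 for complex IV (17 of 21) and 0.23 for ATP synthase (17 of 18). In THP1 it was -0.047 for complex II (2 of 8 above 0), -0.22 for complex III (2 of 14), -0.25 for complex IV (2 of 21) and -0.18 for ATP synthase (2 of 18). Another 17 complex I assembly and accessory genes outside the 43 had a median of 0.15 in MOLM13 and -0.19 in THP1. In RAJI complex IV was at -0.042 (7 of 21 above 0), against 0.036 for the NDUF genes. Other groups with no respiratory role were also above 0 in MOLM13 and below it in THP1. The 76 cytosolic ribosomal protein genes, whose counts are uncertain because of near-identical copies, had a median of 0.31 in MOLM13 (72 above 0) and -0.47 in THP1 (1 above 0). Of the NDUF genes, 32 have coding sequences of at most 600 bases. The 1271 other tested genes of that size had a median of 0.081 in MOLM13 (58.9% above 0) and -0.13 in THP1 (34.1% above 0), and 9735 longer genes had -0.018 in MOLM13 and 0.021 in THP1. In KOPN8, RS4-11 and JURKAT both groups also lay on the side of the NDUF genes. The ribosomal protein medians there were 0.19, 0.067 and -0.089, and those of the other short genes 0.076, 0.033 and -0.039. K562 and RAJI differed, with ribosomal protein genes at -0.014 and -0.24 and NDUF medians above 0, at 0.036 in RAJI. The part of gene size and of these other groups in the NDUF values was not tested.

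For every one of the 42 genes the log2 range over the 8 lines with 3R was larger than its largest log2 ratio between peptides in any line. A range is the widest difference between any lines, so the comparison favours the lines, and no share over all genes is given for it. With 3R, the median NDUF gene was 2.42-fold higher in its highest line than in its lowest, against 4.96-fold for the median of all tested genes, and the median SD over lines was 0.42 in log2, against 0.78. K562 had the highest level of 13 genes, MOLM13 and RAJI of 9 each and THP1 of 7. P493-6 had the lowest level of 15 genes and KOPN8 of 11. The highest line was the same with both peptides for 31 genes, and the lowest line likewise for 31, with no share over all genes counted.

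**Figure D4:**
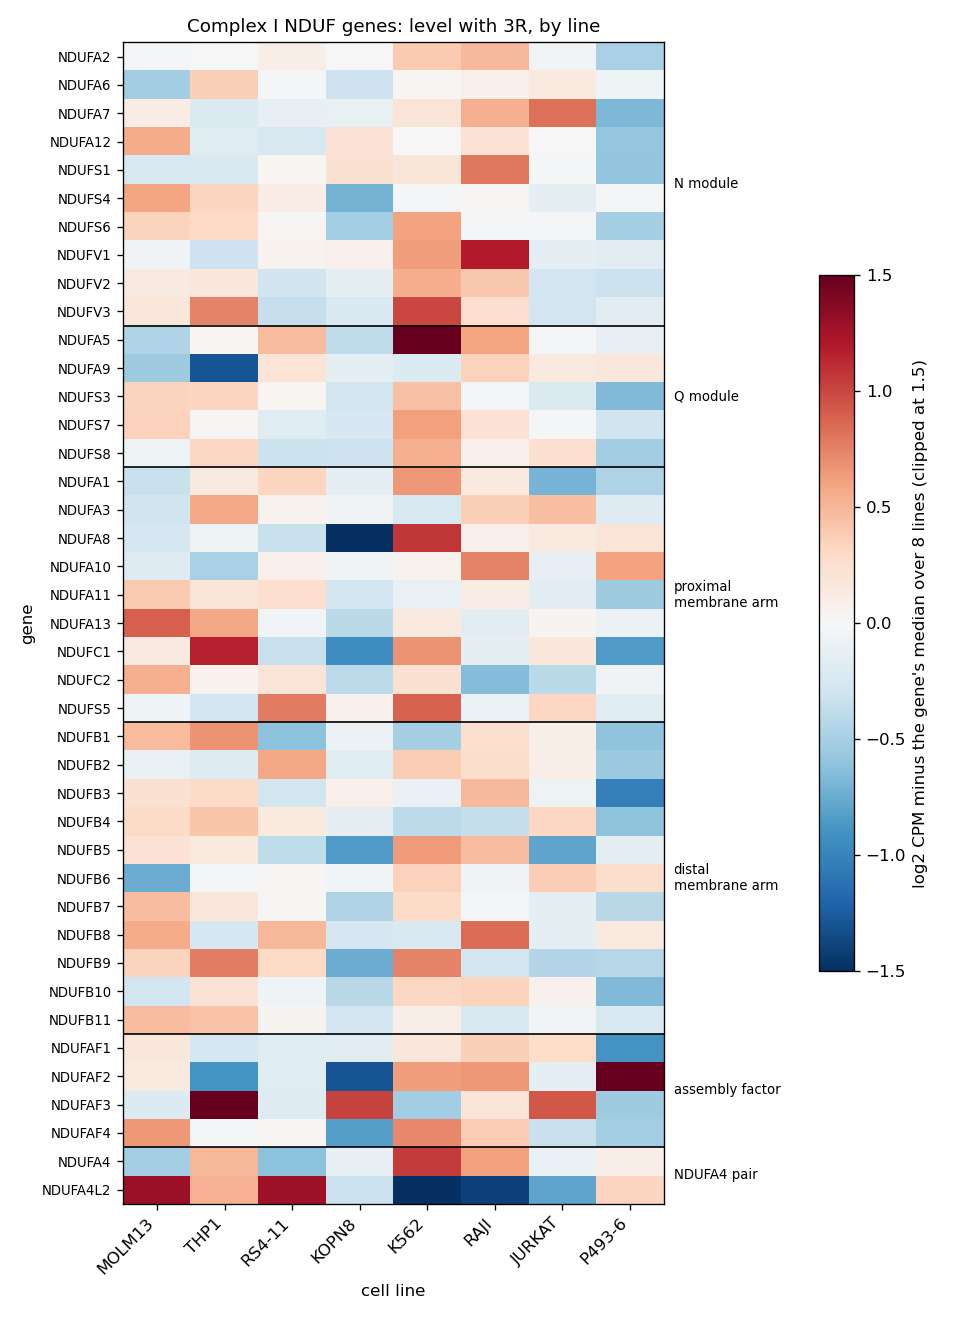
Level of 41 tested NDUF genes (rows, grouped by module) with 3R in each line (columns), as log2 CPM minus the gene's median over the 8 lines (colour, clipped at 1.5 either way). K562 and RAJI are mostly red, KOPN8 and P493-6 mostly blue, and NDUFA4L2, NDUFAF2, NDUFA8, NDUFA5 and NDUFAF3 have the widest ranges.

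NDUFA4L2 had the widest range, from 0.765 CPM in K562 to 19.5 CPM in MOLM13 with Y518R and from 0.691 CPM in K562 to 16 CPM in MOLM13 with 3R. The K562 values rest on 23 and 16 counts. NDUFAF2, a chaperone of late assembly and a paralog of NDUFA12, ran 6.96-fold with 3R, from 8.85 CPM in KOPN8 to 62.1 CPM in P493-6. NDUFA8, an accessory subunit on the intermembrane space side, ran 6.14-fold, from 21.5 CPM in KOPN8 to 133 CPM in K562. NDUFA5, an accessory subunit of the Q module, ran 5.41-fold, from 56.8 CPM in MOLM13 to 308 CPM in K562, and the next line, RAJI, was at 117 CPM. NDUFAF3, which acts with NDUFAF4 in building the Q module, ran 4.77-fold, from 41.9 CPM in P493-6 to 200.2 CPM in THP1, while NDUFAF4 was highest in K562 at 74.2 CPM. With Y518R the highest line of each was the same: K562 for NDUFA8 (129 CPM) and NDUFA5 (276 CPM), P493-6 for NDUFAF2 (59.9 CPM) and THP1 for NDUFAF3 (182 CPM).

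The narrowest ranges with 3R were those of NDUFB11 (1.68-fold), NDUFV2 (1.83-fold), NDUFA3 (1.83-fold), NDUFA6 (1.84-fold) and NDUFS7 (1.88-fold). NDUFB11 lay between 92.5 CPM in KOPN8 and 156 CPM in MOLM13. The core subunit NDUFV1 had a range of 2.84-fold, lowest in THP1 at 171 CPM and highest in RAJI at 486 CPM.

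Levels can be set between genes only per length. Per kilobase of coding sequence, NDUFS5, an accessory subunit on the intermembrane space side, was the most abundant, with a median over lines of 626 CPM per kilobase with Y518R and 552 with 3R. NDUFA4 followed, with 445 with Y518R and 441 with 3R. NDUFA4L2 was the least abundant per kilobase of coding sequence, at 18.8 with Y518R and 25.4 with 3R, and with 3R the next lowest was NDUFAF1, at 29.5 with Y518R and 28.9 with 3R. The core subunit NDUFS1 was low in this ranking, at 62.8 with Y518R and 59.7 with 3R. With whole transcript length in place of coding length NDUFS5 was still the highest, at 323 CPM per kilobase with 3R, and NDUFA4 was at 50.4. By that length NDUFC2 was the lowest with 3R, at 4.46 CPM per kilobase, and NDUFA4L2 was at 5.62 and NDUFAF1 at 19.4.

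Without regard to peptide response, the MLL-fusion lines were set against the other lines in the 3R libraries. The median log2 difference of the 42 genes was -0.078 (17 above 0), against -0.013 over 13107 genes (49.2% above 0). edgeR called 0 of the 42 and 7 of all genes (0.0534%) at an adjusted p under 0.05. At an unadjusted p under 0.05 it gave 2 of the 42 and 10.1% of all genes, DESeq2 called 0 of the 42 and 477 genes in all, and limma-voom 0 and 4. The sign of the median depended on single lines: it was 0.014 without RAJI, 0.017 without KOPN8, 0.11 without K562 (23 of 42 above 0) and -0.19 without P493-6 (14 of 42), and it was 0.0021 in the Y518R libraries of all 8 lines. NDUFA8 was the only one of the 42 whose levels did not overlap. It was at 52.9 CPM in MOLM13, 59.6 CPM in THP1, 49.9 CPM in RS4-11 and 21.5 CPM in KOPN8, against 133 CPM in K562, 66.5 in RAJI, 69.9 in JURKAT and 71.9 in P493-6. All MLL-fusion lines were thus below all other lines, as were 3.33% of all genes, and no NDUF gene lay above them all, as did 4.11%. The log2 difference of NDUFA8 was -0.90 ± 0.39 (SE, n = 4 against 4 lines; edgeR adjusted p = 0.485). NDUFAF2 had the lowest p, at 15.9 ± 6.98 CPM in MLL-fusion lines and 37.4 ± 17.7 CPM in other lines (SD, n = 4 each), a log2 difference of -1.24 ± 0.48 (SE; edgeR adjusted p = 0.455). On the higher side NDUFA4L2 came first, at 11.6 ± 5.28 CPM in MLL-fusion lines and 3.71 ± 3.17 CPM in other lines (SD, n = 4 each; log2 difference 1.63 ± 0.79 SE; edgeR adjusted p = 0.5256). NDUFB4 (0.40 ± 0.27) and NDUFA11 (0.31 ± 0.23) followed there, and NDUFA10 (-0.51 ± 0.26) came last of the 3 named on the lower side, with edgeR adjusted p of 0.544 to 0.681. Without JURKAT the difference of NDUFB4 was 0.64, and without P493-6 that of NDUFA11 was 0.19.

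The lines also divide by lineage, which is background knowledge of these lines and not in the labels for each. The lymphoid lines are RS4-11, KOPN8, RAJI, JURKAT and P493-6, and the myeloid or erythroid lines MOLM13, THP1 and K562. Of the latter, MOLM13 and THP1 are also MLL-fusion lines, while RAJI, JURKAT and P493-6 are lymphoid lines without a fusion. Lineage and fusion class therefore overlap in part, and the comparisons of lines do not separate them. With 3R, 32 of the 42 genes were lower in the lymphoid lines, as were 6943 of 13981 genes in all. The median log2 difference of the 42 was -0.28, against 0.0071 over all genes. No single gene passed: edgeR called 0 of the 42 and 34 of all genes (0.243%) at an adjusted p under 0.05, and 9 of the 42 and 12.7% of all genes had an unadjusted p under 0.05. DESeq2 called 1 of the 42 and 900 genes in all, and limma-voom 0 of the 42 and 14. Leaving out 1 line at a time moved the median between -0.37, without RAJI (10 of 42 above 0), and -0.22, without K562 (16 of 42). With the Y518R libraries of the same lines, which are not independent of the 3R libraries, it was -0.29.

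**Figure D5:**
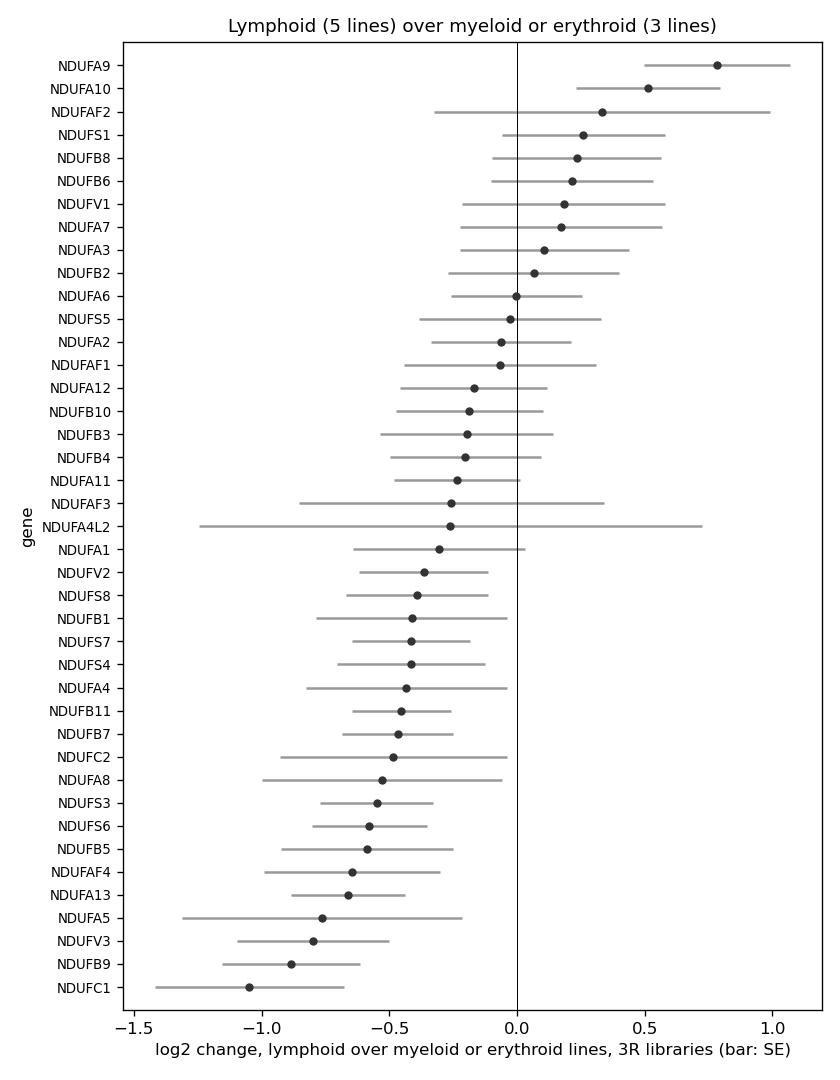
Log2 difference of 41 of the 42 tested NDUF genes (rows, sorted) between 5 lymphoid and 3 myeloid or erythroid lines in the 3R libraries, with its SE as the bar. Points left of 0 are lower in the lymphoid lines: most genes lie there, and NDUFA9 at 0.78 is the highest.

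NDUFB9, in the distal arm, averaged 119 ± 34.0 CPM in lymphoid lines (SD, n = 5) and 224 ± 35.7 CPM in myeloid or erythroid lines (SD, n = 3), a log2 difference of -0.88 ± 0.27 (SE; edgeR adjusted p = 0.260). NDUFA13, a proximal arm subunit also known as GRIM-19, averaged 117 ± 13.3 CPM in lymphoid lines and 190.2 ± 48.5 CPM in myeloid or erythroid lines (log2 difference -0.66 ± 0.22 SE; edgeR adjusted p = 0.296).

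Levels of 7 genes lay wholly lower in the lymphoid lines, NDUFS3, NDUFS6, NDUFA13, NDUFB7, NDUFB9 and NDUFB11 among them, as did those of 5.26% of all tested genes. NDUFS3, a core subunit of the Q module, ranged from 58.9 to 95.3 CPM in lymphoid lines and from 117 to 126 CPM in the others. NDUFS6, which joins the N module late in assembly, ranged from 74.5 to 107 CPM in lymphoid lines and from 129.9 to 161 CPM in the others. With Y518R the groups of NDUFS3, NDUFS6, NDUFB7 and NDUFB9 overlapped. THP1 was then at 88.0 CPM for NDUFS3 and 100 CPM for NDUFS6, against 97.1 and 129 CPM in RAJI. It was at 63.1 CPM for NDUFB7 and 173 CPM for NDUFB9, against 79.4 and 178 CPM in RS4-11. The groups of NDUFA13 and NDUFB11 did not overlap with Y518R either. NDUFA9 went the other way and was the 1 gene wholly higher in the lymphoid lines, as were 4.31% of all genes. It ranged from 89.8 to 126 CPM in lymphoid lines and from 40.5 to 86.1 CPM in the others (log2 difference 0.78 ± 0.29 SE; edgeR adjusted p = 0.328). With Y518R its groups overlapped, since KOPN8 was at 92.7 CPM and MOLM13 at 95.8 CPM. NDUFA10 (0.51 ± 0.28 SE; edgeR adjusted p = 0.510), a proximal arm subunit, and NDUFS1 (0.26 ± 0.32 SE; edgeR adjusted p = 0.809) followed on the higher side. Without RAJI the difference of NDUFS1 was 0.055.

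By module the lineage medians in log2 were -0.12 for the N module (7 of 10 below 0), -0.48 for the Q module (5 of 6), -0.30 for the proximal arm (7 of 9), -0.20 for the distal arm (8 of 11) and -0.16 for the assembly factors (3 of 4). For other respiratory genes they were -0.39 for complex II (6 of 8 below 0), -0.16 for complex III (9 of 14), -0.038 for complex IV (11 of 21) and -0.33 for ATP synthase (12 of 18), with no gene called by edgeR. A list of 12 tested regulators of mitochondrial biogenesis had a median of 0.077 (8 of 12 above 0).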

How the data were processed

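Each library was deposited as counts, whole numbers of reads per gene symbol with no normalization by the authors. Entries that name no gene were left out of library sizes. No-feature reads were 17.7% to 26.9% in 15 libraries, as a share of the reads on a gene, on several genes or on none. Tools in the submitters' processing notes are TopHat2 2.1.1, HTSeq 0.6.1, CASAVA 1.8.4, DESeq and DESeq2 3.0, and the builds GRCh38 and hg19, with no role given. The sources used here do not say which build or strand setting gave the counts, so overlapping and antisense genes are uncertain.

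Counts were tested in R 4.3.3 with edgeR 4.0.16 (quasi-likelihood test, TMM scaling, filterByExpr at a minimum count of 10, Benjamini-Hochberg adjustment over all genes tested, calls at an adjusted p under 0.05). The 4 peptide comparisons used all 16 libraries with cell line as block, and the 2 line comparisons used the 8 libraries with 3R. DESeq2 1.42.0 and limma-voom (limma 3.58.1) were alternatives, with other scaling, no filter, no block and each line left out. The SE was obtained from the log2 change and the quasi-likelihood F (size of the change over root F). The labels pair libraries by line, and after centring on each peptide's mean the 2 libraries of a line had correlations of 0.951 to 0.984 over genes, with 0.411 the highest for libraries of different lines. P-values of the 2 line comparisons measure the spread between lines. Those of the 4 peptide comparisons measure the spread of the peptide change over lines. With 1 library per line and peptide, part of either spread may be technical. Single-line log2 ratios used a prior count of 2. Coding lengths came from GENCODE 29.

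Symbols were used as deposited, so NDUF genes listed under older symbols entered a separate list of other complex I genes. The genes and lists were chosen with earlier results of these data known. Named genes were those past the threshold, the 3 with the lowest p per direction, the 5 widest and 5 narrowest ranges over lines, the extremes of each line, the core subunits, NDUFA4 and NDUFA4L2. A gene counted in the totals is not reported here by itself. Fits of some of the comparisons were tested on simulated data, with changes larger than the peptide changes of the NDUF genes. How often changes of that smaller size would be called was not simulated.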

Additional observations from a re-analysis of the deposited data

Results flagged for a closer look

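Among the NDUF genes, 7 values lay far from those of the 7 other lines, by the gap to the nearest line divided by the whole range over 8 lines. Chance flags about 1 in 20 such groups, so several are expected by chance among 42 genes looked at in 2 ways. In MOLM13 the log2 ratio of Y518R over 3R was 0.92 for NDUFA7 (the next line, K562, was at 0.24) and 0.63 for NDUFA12 (the next, RS4-11, was at 0.14). In THP1 the ratio was -0.74 for NDUFB1 (the next line was at -0.19), -0.46 for NDUFB4 (next -0.18) and -0.21 for NDUFC1 (next -0.036). In the levels with 3R, NDUFA5 was at a log2 CPM of 8.27 in K562 (next 6.88), and NDUFB6 was at 4.73 in MOLM13, below all other lines (next 5.43).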

How the results depend on the processing

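In the 4 peptide comparisons 0 NDUF genes were called under every alternative run, by edgeR, DESeq2 or limma-voom. Medians of the NDUF genes, which carry no test, did change sign: over 8 lines and in MLL-fusion lines without MOLM13 (-0.0097 and -0.014) and without KOPN8 (-0.0066 and -0.0051), in other lines without JURKAT (0.014), and for MLL-fusion against other lines without KOPN8, K562 or RAJI (0.017, 0.11 and 0.014) and with Y518R libraries (0.0021). With no replicate block, so that the pairing by line was dropped, 0 genes in all and 0 NDUF genes were called in each, and the NDUF median over 8 lines was 0.013. Calls over all genes did move. Over 8 lines there were 3 with no filter on low counts and 1 by limma-voom. In MLL-fusion lines there were 52 with no filter, 1 by DESeq2, 20 by limma-voom, and 0 to 3 with a line left out. In other lines there were 1 with no filter and 2 by limma-voom, and for the difference between classes 9 with no filter, 2 by DESeq2, 2 by limma-voom and 0 to 1 with a line left out. For MLL-fusion against other lines, the main count of 7 became 477 by DESeq2, 4 by limma-voom, 4 with Y518R libraries, and 4 to 11 with a line left out. For lymphoid against myeloid or erythroid lines, 34 became 900 by DESeq2, 14 by limma-voom, 18 with Y518R libraries, and 5 (without THP1) to 138 (without K562) with a line left out. DESeq2 called 1 NDUF gene there, against 0 by edgeR. The causes were not tested. Without TMM scaling the MOLM13 median ratio was 0.10, that of THP1 -0.24, and the K562 median changed sign to -0.013.

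Single lines rest on 1 library per peptide. Depth limits NDUFA4L2 most, at 16 counts in its lowest library. For the other tested genes every library had more than 100 counts.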
